A study of Mus musculus with 12 samples.

Results

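A set of 6 genes that act beside the GABA-A receptor at inhibitory synapses, taken by gene name from the 34745 genes of the deposited table, are described here across 12 libraries of mouse medial prefrontal cortex (mPFC). They are Gabbr1 and Gabbr2, the subunits of the GABA-B receptor, Nlgn2 and Gphn, the neuroligin and the scaffold of the inhibitory postsynapse, and Slc12a5 and Slc12a2, the chloride cotransporters KCC2 and NKCC1. All 6 were found and all 6 passed the filter on low counts, in every library at 1045 counts or more. The mice were WT males (the sex is given for the whole series), and the sources used here give no strain or age. One group, called ipsilateral, holds 4 libraries of the left mPFC of mice at day 28 after chronic constriction injury (CCI) of the sciatic nerve, in which loose ligatures give a lasting neuropathic pain. The second group, called contralateral, holds 4 libraries of the right mPFC of mice with the same injury at the same time. The third group, called naive, holds 4 libraries of mPFC from mice without an operation, also labelled day 28, whose hemisphere the labels do not give. No sham-operated group is among these libraries, so the operation and the nerve injury cannot be told apart. Left and right libraries share the numbers 1 to 4, which the codes in their titles imply are single mice without saying so.

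GABA-B receptors are G-protein-coupled receptors made of both subunits: GABAB1 binds GABA, and GABAB2 brings the complex to the cell surface and couples it to Gi/o proteins, which open GIRK potassium channels and close presynaptic calcium channels. Neuroligin 2 sits in the postsynaptic membrane of inhibitory contacts, binds presynaptic neurexins and helps to gather gephyrin, which in turn anchors GABA-A and glycine receptors. Gephyrin also makes the molybdenum cofactor, in all tissues. KCC2 pumps chloride out of mature neurons and NKCC1 brings it in, and their balance sets whether GABA-A receptor currents hyperpolarise the cell. A loss of KCC2 is well known from the spinal dorsal horn after nerve injury. NKCC1 is also made by glia and vascular cells.

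Total counts were 16.1 to 20.6 M (mega-counts) per library, and each member rests on at least 1045 counts everywhere. Counting error weighs most for the members of fewest counts, Gphn and Slc12a2, and was not split from the spread between libraries. Markers of excitatory neurons, 10 genes fixed for the purpose, summed to 5270 to 6672 CPM (counts per mega-count of the library) and those of interneurons to 1215 to 1406 CPM, with no marker at 0 in all 12 libraries. Some contralateral libraries stood apart in other markers. Contralateral 1 held 558 CPM of striatal markers against 254 to 315 CPM in the other libraries. Contralateral 1 and 2 and ipsilateral 1 held the highest sums of oligodendrocyte markers, and contralateral 3 and 4 the highest of endothelial, mural, microglial and astrocyte markers and the highest mitochondrially encoded share (8.66% and 9.28% of counts, against 6.89% to 8.25% elsewhere). In bulk tissue, fewer cells of a type and less RNA per cell cannot be told apart. The labels do not say that the libraries of a group came from separate mice, so the p-values measure the spread between these libraries, which may be technical in part.

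The level of each gene was first set against the others on a scale per length, the deposited FPKM (fragments per kilobase and mega-count). Averaged over the 12 libraries (± SD), Gabbr2 stood at 67.9 ± 4.12 FPKM and Gabbr1 at 58.2 ± 1.69. Nlgn2 (40.7 ± 3.03) and Slc12a5 (40.4 ± 2.89) did not differ beyond their spread. Gphn followed at 20.3 ± 1.35 and Slc12a2 was lowest at 11.6 ± 1.99 FPKM. The top of this order depends on the length used. Over the merged exons of the GENCODE M21 annotation, Gabbr1 came first with 98.8 ± 2.87 counts per kilobase and mega-count, before Gabbr2 (74.6 ± 4.53), Slc12a5 (64.5 ± 4.63) and Nlgn2 (50.9 ± 3.79), because the authors' values imply a gene length of 13.2 kb for Gabbr1 and 11.9 kb for Slc12a5 where the merged exons hold 7.76 and 7.45 kb. Gphn (18.4) and Slc12a2 (6.92) were the lowest on both scales. On either scale the chloride extruder gene was expressed above the chloride loader gene.

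Where these genes start can be shown from the RefSeq promoter table (GRCm38.p6), which gave windows for 5 of the 6 genes. 3 windows are printed, without bases of annotated exons: that of Nlgn2, the member whose level differed most clearly between the groups, and the pair upstream of the alternative starts of Slc12a5, to show how these differ. Capitals mark the GC box (GGGCGG, or CCGCCC when read from the other strand), which Sp1-type factors bind, and the E-box CACGTG, which factors such as USF1 bind.
Nlgn2, chr11:69837785-69838034, minus strand: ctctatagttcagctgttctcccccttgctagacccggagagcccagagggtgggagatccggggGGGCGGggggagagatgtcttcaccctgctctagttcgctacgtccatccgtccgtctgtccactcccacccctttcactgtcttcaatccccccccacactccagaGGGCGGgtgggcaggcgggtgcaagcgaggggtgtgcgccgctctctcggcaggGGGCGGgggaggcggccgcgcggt
Slc12a5, upstream start, chr2:164960596-164960801, plus strand: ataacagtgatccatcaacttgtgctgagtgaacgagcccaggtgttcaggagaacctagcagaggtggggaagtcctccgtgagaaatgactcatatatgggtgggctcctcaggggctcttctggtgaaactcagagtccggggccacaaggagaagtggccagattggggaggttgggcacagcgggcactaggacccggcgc
Slc12a5, downstream start, chr2:164967738-164967982, plus strand: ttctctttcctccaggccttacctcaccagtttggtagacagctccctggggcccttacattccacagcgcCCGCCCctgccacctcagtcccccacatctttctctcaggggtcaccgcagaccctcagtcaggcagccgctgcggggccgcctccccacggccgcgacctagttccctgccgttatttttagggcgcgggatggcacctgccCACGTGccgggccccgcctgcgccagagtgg
The Nlgn2 window holds 3 GC boxes and no E-box. The windows of Slc12a5 differ: the upstream one holds neither motif, and the downstream one holds 1 GC box and 1 E-box. Among all 32851 windows of 250 bases, searched on both strands, 32.7% hold a GC box, 6.02% this E-box and 12.4% the letters TATAAA, which none of the member windows hold. The windows of Gabbr2 and Gphn are the richest in CpG (37 and 34 in 250 bases, against 13 to 18 in the other member windows and a median of 6 over all windows). These counts cover whole windows, with annotated exon bases left in. Only 91 bases for Gabbr2 and 224 for Gphn come before the first annotated exon base, against all 250 for Gabbr1 and Nlgn2. A match of letters is a description of the window and not evidence of a bound site.

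**Figure D1:**
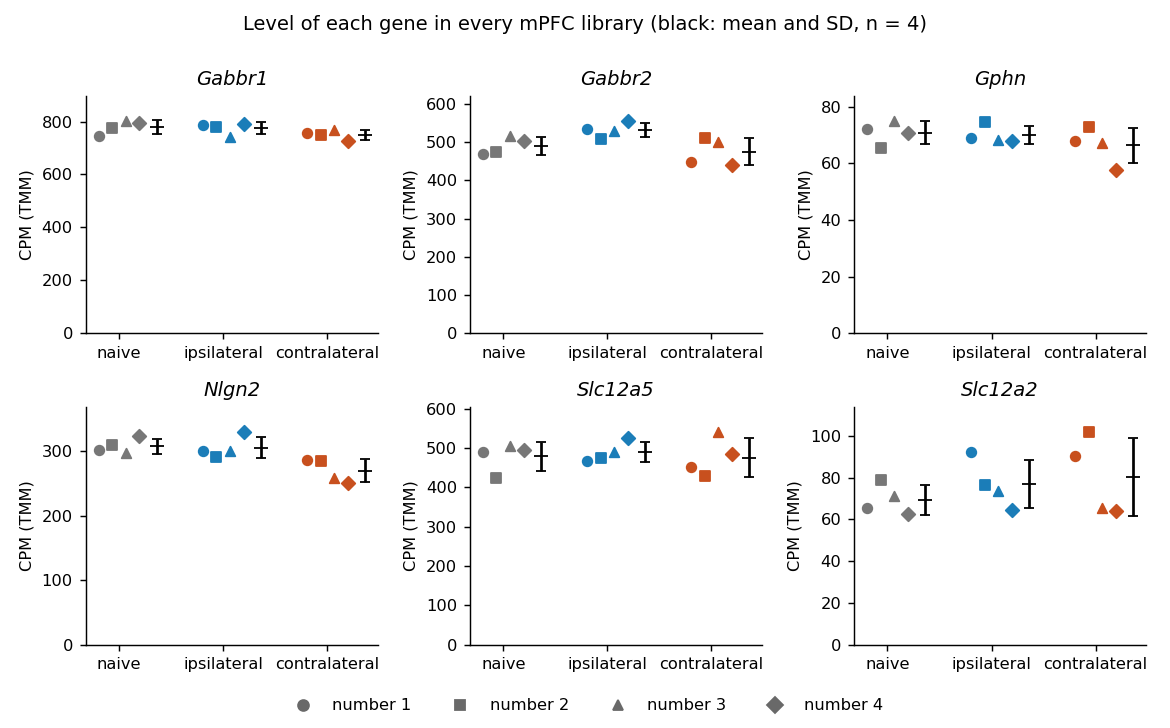
Level of each gene (y axis, CPM with TMM scaling) in each of the 12 mPFC libraries, by group; symbols give the library number, and black marks the mean and SD of 4 libraries. The 4 contralateral libraries of Nlgn2, 250.2 to 287 CPM, lie below all others, and Slc12a2 has the widest ratio of highest to lowest library (1.63, from 62.5 to 102 CPM).

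Across groups, the 6 transcripts differed little: no member passed the threshold, a Benjamini-Hochberg adjusted p under 0.05 over all tested genes in edgeR's quasi-likelihood test, in any of the 4 comparisons. Values below are CPM with TMM scaling factors, and log2 fold changes come with standard errors (SE). Neither did any other gene pass: 0% of 15808 genes for contralateral against naive, 0% for ipsilateral against naive, 0% for contralateral against ipsilateral, and 0% of 16179 genes when the counts of left and right libraries of a number were summed and set against naive. DESeq2 and limma voom also called 0 members in each comparison. At an unadjusted p under 0.05 there was 1 of 6 members for contralateral against naive (Nlgn2; 3.78% of all genes), 0 of 6 for ipsilateral against naive (4.83%), 2 of 6 for contralateral against ipsilateral (Gabbr2 and Nlgn2; 8.36%) and 1 of 6 for the summed CCI libraries against naive (Nlgn2; 4.2%). The comparisons share libraries, so these counts are not independent of each other. The fold changes of the 6 members had a median of -0.05, 0.01, -0.06 and -0.01 (log2) in the 4 comparisons, beside 0.00 for all tested genes in each.

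**Figure D2:**
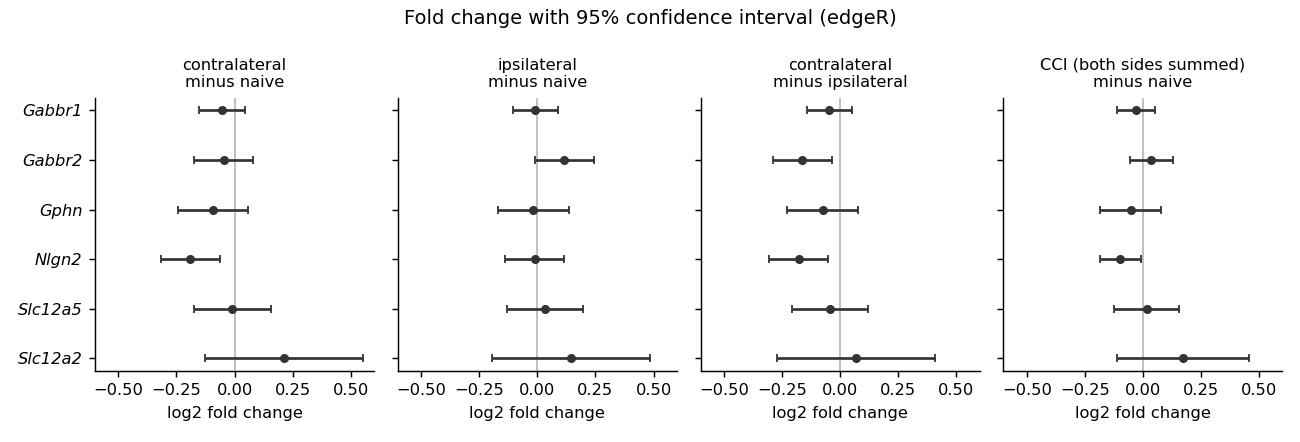
Log2 fold change of each gene (x axis) with its 95% confidence interval from edgeR in the 4 comparisons. Only the intervals of Nlgn2 (3 comparisons) and of Gabbr2 (contralateral minus ipsilateral) leave out 0; those of Slc12a2 are the widest.

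Gabbr1 (ENSMUSG00000024462; GRCm38 chromosome 17, 37045966 to 37075067, plus strand) encodes the GABA-binding subunit. Its ipsilateral libraries 1 to 4 held 786, 779.7, 741 and 790.1 CPM, its contralateral libraries 757, 748, 769 and 726 CPM, and its naive libraries 745, 774, 802 and 795 CPM. All 3 groups overlapped. Gabbr1 was the steadiest of the 6: its SD within groups was 0.04 on the log2 scale, smaller than that of all but 1.40% of the 143 tested genes within 0.5 log2 of its level. Its fold changes were -0.05 (95% interval -0.15 to 0.04) for contralateral against naive and -0.01 (-0.11 to 0.09) for ipsilateral against naive, so the data limit a difference in this transcript to about that range.

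Gabbr2 (ENSMUSG00000039809; chromosome 4, 46662305 to 46991873, minus strand) encodes the subunit that couples to G proteins. The ipsilateral libraries held 535, 508, 529.6 and 555 CPM and the contralateral ones 449, 509.8, 500.5 and 441 CPM. The naive libraries held 469, 474, 517 and 503 CPM. The left side of CCI mice was thus highest on average (532 ± 19.4 CPM; SD, n = 4), above the right side (475 ± 35.2) and naive (491 ± 23.1), and its range overlapped both. The log2 difference of contralateral minus ipsilateral was -0.16 (SE 0.06; edgeR adjusted p = 0.592), and that of ipsilateral minus naive was 0.12 (SE 0.06; edgeR adjusted p = 0.972). Contralateral 1 and 4 are the low libraries, while contralateral 2 and 3 lie within the naive range. Astrocyte markers lay the other way between the sides, positive on the right in 10 of 10 (values beside Nlgn2). Their sum was 2042 CPM in contralateral 1 and 4784 CPM in contralateral 4. Most of that gap was the gene Slc1a2, at 425 and 2786 CPM. The other 9 astrocyte markers summed to 1617 and 1998 CPM. Contralateral 1 held the highest striatal sum (558 CPM) and the lowest excitatory (5270 CPM) and interneuron (1215 CPM) sums of all libraries. The part of these markers in the Gabbr2 difference was not tested.

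Because both subunits are needed for a working receptor, their count ratio within each library was compared too; it needs no scaling factor. Gabbr2 counts per Gabbr1 count were 0.681, 0.652, 0.714 and 0.703 in ipsilateral libraries 1 to 4. They were 0.631, 0.612, 0.645 and 0.633 in naive libraries and 0.594, 0.681, 0.6504 and 0.607 in contralateral libraries. Every ipsilateral ratio lay above every naive ratio, a mean log2 difference of 0.13. An exact two-sided permutation test gave p = 0.0286, the smallest that 70 arrangements of 4 against 4 can give. The adjusted p over the 12 ratio tests was 0.343. A ratio alone at the smallest p could not pass after this adjustment, so the adjusted value does not decide whether the ratio differed. Contralateral against naive the ratio differed by 0.01 (exact permutation p = 0.914), and contralateral against ipsilateral by -0.12 (exact permutation p = 0.0857).

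Of 24 genes of GABA-B partners and effectors, all 24 were tested and 0 passed in any comparison. Between contralateral and naive, 16 of the 24 had a negative fold change (median -0.04), and between ipsilateral and naive 15 had a positive one (median 0.06). Set against the left side, the right side had a negative value in 16 (median -0.06), with 2 higher and 6 lower at an unadjusted p under 0.05, beside 724 higher and 598 lower (8.36% in all) of 15808 tested genes. All tested genes had 48.9% to 50.1% negative values in these comparisons. The members of smallest p on the right side were Kcnj3, the GIRK1 channel subunit (-0.24 against naive, SE 0.11), and Kctd16, an auxiliary subunit of the receptor (-0.26, SE 0.13). On the left they were Gnb5, the G-protein beta subunit that pairs with RGS proteins (0.16, SE 0.07), and the adenylyl cyclase gene Adcy1 (0.21, SE 0.10; edgeR adjusted p = 0.972 for both). Gnb5 was 93.5 ± 3.15 CPM in ipsilateral and 80.9 ± 8.68 CPM in contralateral libraries (log2 difference -0.21, SE 0.07), a pattern like that of Gabbr2, and the inhibitory G-protein gene Gnai2 lay the other way (0.19, SE 0.07; edgeR adjusted p = 0.592 for both). For the summed CCI libraries against naive, the genes of smallest p were Rgs7, which speeds the shut-off of the G protein (-0.10, SE 0.06), and Kctd16 (-0.16, SE 0.10; edgeR adjusted p = 1.00 for both).

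Nlgn2 (ENSMUSG00000051790; chromosome 11, 69823122 to 69837784, minus strand) showed the clearest difference among the members: it was lowest in the right mPFC of CCI mice. The contralateral libraries 1 to 4 held 287, 285, 259 and 250.2 CPM. The ipsilateral libraries held 301, 292, 301 and 329.6 CPM, and the naive libraries 302, 309, 297 and 324 CPM. Every contralateral library lay below every ipsilateral and every naive library, though contralateral 1 lay only just under ipsilateral 2. Against naive the log2 fold change was -0.19 (SE 0.06; 95% interval -0.32 to -0.06), or 0.877-fold, which ranked 49 of 15808 genes by p (edgeR adjusted p = 1.00). Set against the ipsilateral side it was -0.18 (SE 0.06; -0.30 to -0.05), rank 192 (edgeR adjusted p = 0.592). The ipsilateral side itself differed from naive by -0.01 (SE 0.06; -0.14 to 0.12). These comparisons share libraries, the contralateral ones in the first pair. Non-overlapping groups were seen for 1 of 6 members and 2.2% of all tested genes for contralateral against naive, 1 of 6 and 2.95% for contralateral against ipsilateral, 0 of 6 and 4.73% for ipsilateral against naive, and 1 of 6 and 2.71% for the summed CCI libraries against naive.

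The 2 lowest Nlgn2 values came from contralateral 3 and 4. The same libraries held the highest endothelial sums (419 and 449.7 CPM, against 325 to 389 CPM in the other 10 libraries), mural sums (293 and 306 CPM, against 216 to 268) and microglial sums (509 and 576 CPM, against 406 to 498). Their excitatory neuron markers summed to 6672 and 6222 CPM, against 5270 and 5581 in contralateral 1 and 2. Ipsilateral libraries held 5849 to 6449 CPM of these markers and naive libraries 6021 to 6251 CPM. Contralateral 3 and 4 also held the highest astrocyte sums (4566 and 4784 CPM, against 1702 to 4024). The glutamate transporter gene Slc1a2 stood at 2 levels over the 12 libraries, 295 to 509.7 CPM in 7 of them and 2432 to 2786 CPM in the other 5, and without it the other 9 astrocyte markers still summed highest in contralateral 3 and 4 (1850 and 1998 CPM, against 1407 to 1734). Set against the left side, all 10 astrocyte markers had a positive value on the right (median 0.19), 4 of them at an unadjusted p under 0.05 (8.36% of all genes), among them the connexin gene Gja1 (0.28, SE 0.08) and Gfap, an intermediate filament gene of astrocytes (1.04, SE 0.38), with 0 passing the threshold. Against naive 9 of 10 were positive on the right (median 0.09) and 8 of 10 negative on the left (median -0.08). Neuron markers lay the other way between the sides. On the right, 8 of 10 excitatory markers (median -0.11) and 9 of 11 interneuron markers (median -0.05) had a negative value. At an unadjusted p under 0.05, 0 excitatory markers were called, and 3 interneuron markers were lower and 1 higher. The part of these markers and of the mitochondrial share in the Nlgn2 difference was not tested. Without contralateral 4 the difference from naive was -0.15 and without contralateral 3 it was -0.16. With left and right summed, CCI libraries held 280 to 294 CPM and naive libraries 297 to 324 CPM, which again do not overlap, with a log2 difference of -0.10 (SE 0.04; edgeR adjusted p = 1.00).

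Gphn (ENSMUSG00000047454; chromosome 12, 78226655 to 78684767, plus strand), the gephyrin gene, is spread over 458 kb, and the M21 annotation has 6 other gene models within it, 1 of which (Gm48226, on the opposite strand) shares 147 exon bases with it; no source used here says whether the counting was strand-aware. The ipsilateral libraries held 69.1, 74.7, 68.2 and 68.0 CPM, the contralateral ones 68.1, 72.8, 67.1 and 57.9 CPM, and the naive ones 72.3, 65.3, 74.97 and 70.8 CPM. The groups overlapped, and contralateral 4 was the lowest library, as it was for Nlgn2, Gabbr1 and Gabbr2. The log2 fold changes of Gphn were -0.09 (SE 0.07) for contralateral and -0.02 (SE 0.07) for ipsilateral against naive (edgeR adjusted p = 1.00 and 0.995). The count ratio of Nlgn2 to Gphn was 4.08 ± 0.23 in contralateral, 4.38 ± 0.38 in ipsilateral and 4.36 ± 0.35 in naive libraries (SD, n = 4 each), and the exact permutation p lay between 0.171 and 0.971 over the 4 comparisons.

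Of 34 listed names of genes of the inhibitory synapse scaffold and of synaptic adhesion, 31 were in the table and tested, and 0 passed in any comparison. Fam196a and Fam196b, both tested, are also listed under their newer names Insyn2a and Insyn2b, which the table does not use. Between contralateral and naive, 20 of 31 had a negative fold change (median -0.04). Between contralateral and ipsilateral 22 did (median -0.05), and between ipsilateral and naive 15 did (median 0.00).

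Mdga1, a membrane protein that binds neuroligin 2 and blocks its contact with neurexin, was the related gene with the smallest p. It held 11.0, 11.9, 12.02 and 13.6 CPM in ipsilateral, 15.3, 12.6, 14.1 and 15.3 CPM in contralateral and 16.9, 16.2, 15.4 and 16.5 CPM in naive libraries. All 8 CCI libraries lay below all 4 naive libraries, and the left side was lowest. On the right the gap was narrow, with contralateral 1 at 15.30 CPM and naive 3 at 15.43 CPM. Groups did not overlap for 4.73% of all tested genes for ipsilateral and 2.2% for contralateral against naive, and Mdga1 was picked by its p. The log2 fold change of ipsilateral against naive was -0.42 (SE 0.09; 0.745-fold), rank 7 of 15808 genes (edgeR adjusted p = 0.497), and that of the summed CCI libraries was -0.30 (SE 0.07; edgeR adjusted p = 0.715). Mdga1 and its ligand Nlgn2 thus had their lowest values on opposite sides. Fam196b, which encodes an inhibitory synaptic factor, stood at -1.04 (SE 0.32) for contralateral and -0.995 (SE 0.32) for ipsilateral against naive at a level of only 0.658 to 2.95 CPM, and Dynll1, a dynein light chain that binds gephyrin, at -0.13 (SE 0.05) for contralateral against naive (edgeR adjusted p = 1.00, 0.954 and 1.00).

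Slc12a5 (ENSMUSG00000017740; chromosome 2, 164960802 to 164999731, plus strand), the KCC2 gene, did not differ detectably between the groups. Its ipsilateral libraries held 467, 475, 490.3 and 526 CPM, its contralateral libraries 450.2, 427, 539.7 and 484 CPM, and its naive libraries 489.6, 424, 504 and 496 CPM. Naive 2 and contralateral 2 were the lowest libraries and contralateral 3 the highest, and the groups overlapped throughout. The 95% interval of the log2 fold change was -0.17 to 0.16 for contralateral against naive (estimate -0.01), -0.13 to 0.20 for ipsilateral against naive (0.03), and -0.12 to 0.15 for the summed CCI libraries (0.02). A change in either direction beyond these bounds is outside what the libraries allow at 95%, and smaller changes were not detectable. The level of Slc12a5 also varied with oligodendrocyte markers (values beside Slc12a2), for which these intervals are not adjusted.

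Slc12a2 (ENSMUSG00000024597; chromosome 18, 57878678 to 57946821, plus strand), the NKCC1 gene, was the most variable member. Its ipsilateral libraries held 92.4, 76.7, 73.6 and 64.7 CPM, its contralateral libraries 90.5, 102, 65.6 and 64.2 CPM, and its naive libraries 65.6, 78.7, 71.0 and 62.5 CPM. Contralateral 1 and 2 and ipsilateral 1 were high, and the remaining CCI libraries lay within the naive range. The log2 fold change was 0.21 (SE 0.16; 95% interval -0.13 to 0.55) for contralateral and 0.15 (SE 0.16; -0.20 to 0.49) for ipsilateral against naive (edgeR adjusted p = 1.00 and 0.975). Within groups its SD was 0.24 on the log2 scale, larger than that of 89.9% of the 2164 tested genes near its level.

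The high Slc12a2 libraries were those with the most oligodendrocyte marker RNA. The summed CPM of 10 oligodendrocyte markers was 4498, 3421, 3166 and 2345 in ipsilateral, 4730.3, 5248, 2418 and 2370.3 in contralateral and 2827, 3374, 3088 and 2588 in naive libraries 1 to 4. All 10 markers had a positive fold change in both comparisons with naive (median 0.31 contralateral and 0.20 ipsilateral), and 0 passed. The plot of cotransporter levels against the marker sum shows Slc12a2 ordered nearly as the markers are. Slc12a5 lay mostly the other way. It held 526, 484 and 539.7 CPM in the libraries of lowest sum (ipsilateral 4, contralateral 4 and contralateral 3). In those of highest sum (ipsilateral 1, contralateral 1 and contralateral 2) it held 467, 450.2 and 427 CPM. Naive 2, at a middle sum, was lowest of all at 424 CPM. The part of this marker sum in the values of Slc12a2 and Slc12a5 was not tested.

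**Figure D3:**
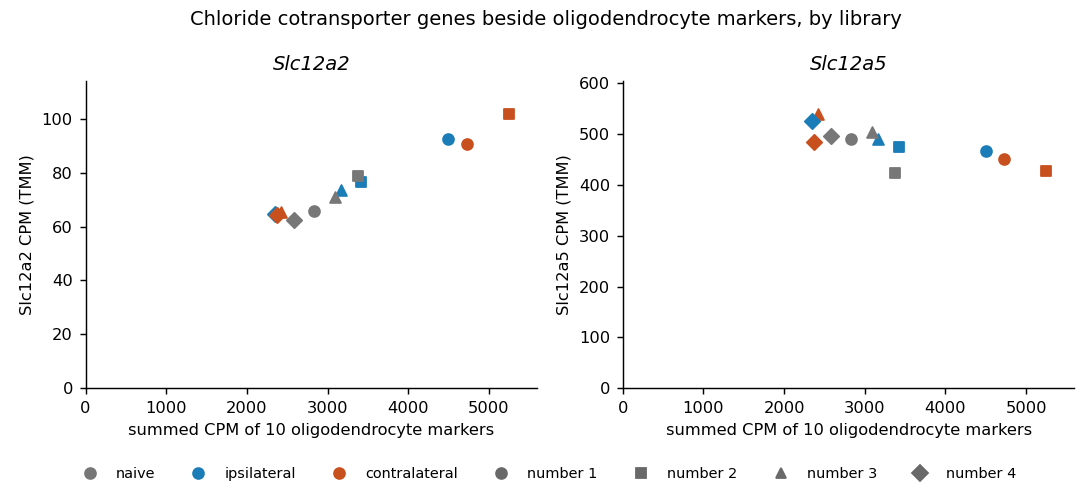
CPM of Slc12a2 (left) and Slc12a5 (right) on the y axes against the summed CPM of 10 oligodendrocyte markers (x axis) in the 12 libraries; colours give the group and symbols the library number. Slc12a2 is highest, 90.5 to 102 CPM, in the 3 libraries of highest marker sum.

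The ratio of Slc12a5 to Slc12a2 counts, a transcript reading of chloride extruder against chloride loader that is not corrected for gene length, was 5.05, 6.20, 6.66 and 8.13 in ipsilateral libraries 1 to 4. It was 4.97, 4.20, 8.23 and 7.54 in contralateral and 7.46, 5.38, 7.10 and 7.93 in naive libraries. The group means of 6.51 ± 1.27, 6.23 ± 1.95 and 6.97 ± 1.11 (SD, n = 4) differed by less than their spread, and the exact permutation p was 0.486 to 0.743 over the 4 comparisons. The ratio ranged more widely among contralateral libraries than between groups. Its lowest values, in contralateral 2 and 1 and ipsilateral 1, came from the libraries with the highest oligodendrocyte marker sums. The part of cell makeup in this ratio of bulk tissue was not tested.

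Of 19 listed genes of other cation-chloride cotransporters and chloride carriers, 17 were tested, and of 23 kinases and regulators of these transporters all 23 were; 0 passed in any comparison. The carriers had 8 negative values for contralateral and 8 for ipsilateral against naive, and the regulators 11 in each, near an even split. Among the carriers, the KCC1 gene Slc12a4 stood at 0.07 for contralateral and 0.11 for ipsilateral against naive. Against naive the smallest p among the carriers belonged to Ano2 (0.78, SE 0.45) and Slc12a8 (0.31, SE 0.25) on the right and to Ano6 (-0.17, SE 0.08) and Clcn5, an endosomal chloride-proton exchanger (0.20, SE 0.11), on the left. The scramblase gene Ano6 was 0.23 (SE 0.08) higher on the right than on the left and the chloride channel gene Ano2 1.11 (SE 0.46) higher, the latter at 1.09 CPM or less on average in each group (edgeR adjusted p = 0.592 for both). Wnk2, a kinase of the family that signals to these cotransporters, had 210.1, 209, 204 and 240.3 CPM in ipsilateral libraries, all above the 186, 194, 188 and 199 CPM of naive libraries (0.17, SE 0.06; edgeR adjusted p = 0.972). In that comparison 4.73% of all tested genes had groups that did not overlap. Klhl3, which marks WNK kinases for degradation, also had a positive value on the left (0.22, SE 0.09), and Prkca, a protein kinase C gene, a negative one on the right (-0.17, SE 0.07; edgeR adjusted p = 0.972 and 1.00). Cab39, whose product activates the kinases that act on both cotransporters, stood at -0.11 (SE 0.06) and Ckb, a creatine kinase known to bind KCC2, at -0.05 (SE 0.06) on the right against naive; against the left they stood at -0.14 (SE 0.06) and -0.18 (SE 0.06). For the summed CCI libraries, Wnk2 stood at 0.14 (SE 0.05) and Prkca at -0.15 (SE 0.06), while Clcn5 (0.16) and Slc12a4 (0.09) led the carriers; none of these passed. Of genes known to act on Slc12a5 transcription, Usf1 stood at 0.01 and 0.01, Bdnf at -0.03 and -0.08 and Egr4 at 0.20 and 0.11 (contralateral and ipsilateral against naive), the last with an SE of 0.39. They were picked from the list with their values known, and others in it, such as Rest and Ntrk2, are not reported here.

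Right and left libraries of the same number can be set side by side, on the reading that they come from 1 mouse. Nlgn2 was lower on the right in 4 of 4 numbers, with log2 differences of -0.07, -0.04, -0.21 and -0.40. Any pairing would give 4 of 4 for Nlgn2, because every contralateral library lay below every ipsilateral one, so this count adds nothing to that. Gphn was also lower on the right in 4 of 4, by -0.02, -0.04 and -0.02 in numbers 1 to 3 and -0.23 in number 4. How many of all tested genes had 4 of 4 in 1 direction was not counted. For Gabbr2 (-0.25, 0.00, -0.08 and -0.33), Gabbr1 (-0.05, -0.06, 0.05 and -0.12) and Slc12a5 (-0.05, -0.15, 0.14 and -0.12) 3 of 4 were lower, and Slc12a2 ranged from -0.17 to 0.41. Number 4 thus gave the largest side difference for Nlgn2, Gphn, Gabbr2 and Gabbr1, and it weighs heavily in each of these means.

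**Figure D4:**
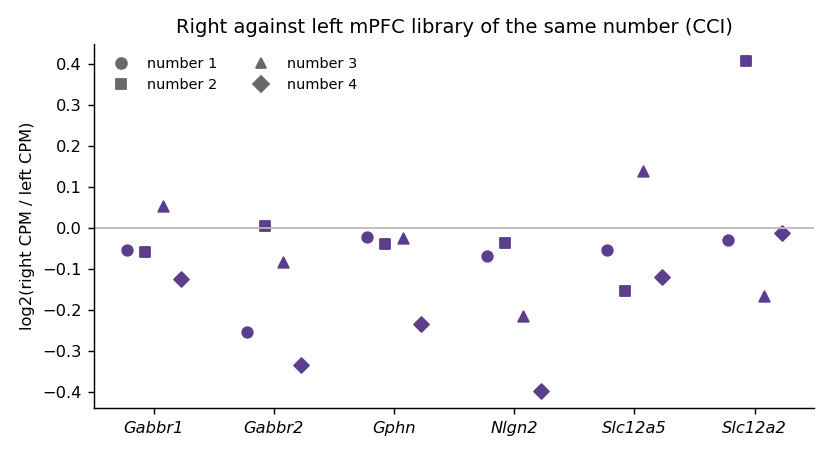
Log2 of right over left CPM (y axis) for each gene in the 4 library numbers of CCI mice; the grey line marks no difference. All 4 points of Nlgn2 and of Gphn lie below 0, and number 4 is lowest for Nlgn2 at -0.40. For Nlgn2 any pairing would place all 4 below 0, because its right and left libraries do not overlap.

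For each member, the 3 tested genes whose log2 CPM followed it most closely over the 12 libraries were ranked as a description, and 2 or 3 of them are given (Pearson r; libraries of a group are not known to come from separate mice, shifts in cell makeup touch all genes of a library, and predicted gene models were left out). Slc12a2 was followed by Lpar1, Gjb1 and Mobp (r = 0.98 each), the last pair being genes of myelinating cells. Gabbr2 was followed by Clstn1 (0.96), which encodes a synaptic calsyntenin, Tbc1d30 (0.94) and Slc45a1 (0.93), and Gphn by Omg (0.93), Mbtps2 (0.93) and Ran (0.92). Nlgn2 had Inip (0.91), Faim2 (0.89) and Ubxn2a (0.88). Slc12a5 had Tbc1d22b and Samsn1 (0.91 each), and Gabbr1, which varied least, had Tram1l1 (0.88) and Tmppe (0.84). No member was among the 3 closest genes of another.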

How the data were processed

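RNA from mPFC tissue was sequenced after preparation with an mRNA kit, per the labels' protocols. The authors deposited 1 table that holds whole-number counts, not normalized, and FPKM values, per the file headers. HISAT2 2.0.4 and GRCm38/mm10 stand in the submitters' processing notes without a role; no counting program, strand setting or annotation is named in the sources used here. Columns were assigned to libraries by their title codes.

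The 12 libraries (16.1 to 20.6 M, or mega-counts) entered edgeR 4.0.16 in R 4.3.3 in a fit with 3 groups (filterByExpr, TMM factors of 0.985 to 1.02, robust quasi-likelihood, two-sided tests, Benjamini-Hochberg over all tested genes, threshold 0.05). A second fit used left and right counts summed by number. FPKM was used only for levels between genes. Count ratios were compared by exact permutation. Log2 CPM for spread and likeness used a prior count of 2. The edgeR fit of 12 libraries was tested on simulated counts for contralateral against naive, with changes larger than those of any member. Smaller changes, the summed fit and the permutation tests were not simulated.

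The members and the gene lists were chosen with earlier results of these data known. The text names all 6 members, per list and comparison the 2 genes of smallest p where none passed (at most 4 where some did), and the 3 genes most alike each member; some genes that this rule names are not reported here. Usf1, Bdnf, Egr4 and Slc12a4 were added for their known roles after their values were seen. Alternatives were other scaling factors, no filter, DESeq2 1.42.0, limma 3.58.1 (voom), fits of only the groups compared, a replicate block and leaving out each library; levels over merged exons were added after the data were seen.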

Additional observations from a re-analysis of the deposited data

Results flagged for a closer look

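Gphn in the ipsilateral group was the 1 of 36 combinations of measure and group in which a single library stood far from the other 3. Ipsilateral 2 held 74.7 CPM where the others held 68.0 to 69.1 CPM, so that the gap made up 0.848 of the group's range, above Dixon's 95% critical value for 4 samples. Chance flags about 1 in 20 groups. The value lies within the naive range of Gphn (65.3 to 74.97 CPM), and without that library the ipsilateral fold change against naive is -0.05 in place of -0.02, both far from the threshold.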

How the results depend on the processing

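No member passed in edgeR under any scaling factor, filter, tool, restriction to the groups compared, replicate block or left-out library (0 of 6 throughout), and the smallest adjusted p of any member was 0.0994 (Gabbr2, contralateral against ipsilateral, without contralateral 2; Nlgn2 0.101 there). Over the whole table, DESeq2 called 3, 9, 0 and 31 genes for contralateral against naive, ipsilateral against naive, contralateral against ipsilateral and summed CCI against naive, where edgeR called 0, and without contralateral 2 edgeR called 159 genes between the sides; none was a member, and the cause was not tested. Of 384 member fold changes under alternatives, 20 changed sign, all on leaving out a library. For Slc12a5 the left-out values ranged from -0.071 to 0.044 for contralateral against naive (positive without contralateral 1 or 2 or naive 1, 3 or 4), from -0.020 to 0.060 for ipsilateral against naive (negative without ipsilateral 4 or naive 2), from -0.106 to 0.0086 between the sides (positive without contralateral 2) and from -0.040 to 0.044 for summed CCI (negative without CCI 3 or 4 or naive 2). Ipsilateral against naive they ranged from -0.027 to 0.016 for Gabbr1, -0.054 to 0.012 for Gphn and -0.048 to 0.015 for Nlgn2, and Slc12a2 between the sides from -0.063 to 0.17 (negative without contralateral 2 or ipsilateral 4). Nlgn2 kept its sign against naive on the contralateral side, from -0.22 to -0.15. Among the log2 count ratios, Slc12a5 to Slc12a2 ranged from -0.22 to 0.011 (ipsilateral against naive) and -0.25 to 0.075 (between the sides), Gabbr2 to Gabbr1 from -0.031 to 0.035 (contralateral against naive) and Nlgn2 to Gphn from -0.046 to 0.058 (ipsilateral against naive; -0.00060 from summed counts). With the replicate block, Nlgn2 stood at -0.19 against naive (edgeR adjusted p = 0.999), -0.18 between the sides (0.705) and -0.10 for summed CCI (1.00), and the calls over the whole table were 1, 1, 0 and 1; left and right libraries of 1 number correlated at -0.14 to 0.06 after group means were removed, and those of different numbers at -0.16 to 0.15, so the data do not show that a number marks 1 mouse. The labels link no naive number to a CCI number, so in comparisons with naive the replicate block joined libraries arbitrarily. With 4 libraries a group, intervals span about 0.1 to 0.3 (log2) on either side, widest for Slc12a2.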

Other observations

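Gephyrin's other role was followed through the enzymes that make or use the molybdenum cofactor. Of 12 listed names, 8 were in the table and tested, and 0 passed in any comparison. Against naive, 7 of the 8 had a negative fold change on the contralateral side (median -0.07) and 6 of the 8 on the ipsilateral side (median -0.14), where about 50% of all tested genes did. Xdh, xanthine dehydrogenase, held 5.22 ± 0.95 CPM in contralateral, 5.31 ± 0.80 in ipsilateral and 6.11 ± 0.98 in naive libraries (SD, n = 4), and Suox, sulfite oxidase, 11.0 ± 1.24, 10.6 ± 0.92 and 11.6 ± 0.74 CPM. Mocs1, the first enzyme of cofactor synthesis, stood at -0.24 (SE 0.18) for contralateral against naive, and the aldehyde oxidase genes Aox1 (0.16, SE 0.17) and Aox4 (0.24, SE 0.29) for contralateral against ipsilateral.

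Across the 8 columns of summed CCI and naive counts, read as animals, the 15 pairs of members were correlated in log2 CPM. The pair of chloride cotransporters had the largest coefficient, Pearson r = -0.71 (exact permutation p = 0.0447, adjusted over the 15 pairs 0.670) and Spearman rho = -0.60 (exact permutation p = 0.132, adjusted 0.834). Without the 2 animals farthest from the median of Slc12a5, r was -0.77. The relation did not pass the adjustment, and the oligodendrocyte marker sum varied along with it, as the plot of both cotransporters shows.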
